A study of Mus musculus with 4 samples.

Results

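The Sonic hedgehog pathway was examined in the mouse cochlea, the spiral hearing organ, through 7 genes chosen by their Ensembl gene IDs: Shh (ENSMUSG00000002633), Hhip (ENSMUSG00000064325), Ptch1 (ENSMUSG00000021466), Smo (ENSMUSG00000001761), Gli1 (ENSMUSG00000025407), Gli2 (ENSMUSG00000048402) and Gli3 (ENSMUSG00000021318). All 7 were present among the 23879 genes of the table. Whole cochleae were dissected from embryos at embryonic day 15, on a strain background labelled 129/Sv and CD-1 that both groups share. The groups were 2 arrays of embryos labelled N-myc ko, identified by PCR genotyping, and 2 arrays of wild-type embryos. N-myc, a MYC family transcription factor, is encoded by Mycn. The labels do not say in which cells the gene was inactivated or by which allele, and they do not say how many embryos a sample holds. The p-values rest on the spread between samples, which the test pools in part over all genes, and not on a known number of embryos. The comparison asked whether expression of the pathway genes differed when N-myc is mutated.

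Hedgehog signalling begins with the secreted ligand Shh. Without ligand, the membrane receptor Ptch1 holds the transducer Smo inactive, and ligand binding to Ptch1 releases Smo, which then controls the zinc finger transcription factors of the GLI family. Ptch1, Hhip and Gli1 are well known transcriptional targets of the pathway, and Ptch1 and Hhip both bind the ligand and limit its spread. In the mouse inner ear, Shh made outside the otic epithelium, at later stages by neurons of the spiral ganglion, patterns the cochlea and influences when its sensory cells differentiate. In cerebellar granule cell precursors of the mouse, Mycn is itself a known target of the pathway.

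The proximal promoters of the 3 genes that passed the test are shown because these genes moved in opposite directions. Each window runs from 250 bases before to 50 bases after the gene's start in RefSeq (build GRCm38.p6), 5′ to 3′ on the gene's strand. Capitals mark the letters CCACCC or, on the other strand, GGGTGG, the core of the known GLI binding sequence.
Hhip, chr8:80057959-80058258, minus strand: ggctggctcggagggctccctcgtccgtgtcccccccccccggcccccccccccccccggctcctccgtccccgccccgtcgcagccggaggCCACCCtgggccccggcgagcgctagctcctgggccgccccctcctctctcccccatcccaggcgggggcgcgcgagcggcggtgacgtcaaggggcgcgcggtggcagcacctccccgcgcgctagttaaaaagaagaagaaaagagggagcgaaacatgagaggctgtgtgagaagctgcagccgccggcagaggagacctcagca
Smo, chr6:29735247-29735546, plus strand: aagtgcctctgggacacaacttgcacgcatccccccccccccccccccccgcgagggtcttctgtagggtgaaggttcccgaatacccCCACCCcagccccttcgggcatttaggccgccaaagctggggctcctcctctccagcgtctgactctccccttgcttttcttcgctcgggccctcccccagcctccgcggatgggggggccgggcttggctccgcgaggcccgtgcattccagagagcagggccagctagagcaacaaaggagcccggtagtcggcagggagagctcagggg
Gli3, chr13:15463473-15463772, plus strand: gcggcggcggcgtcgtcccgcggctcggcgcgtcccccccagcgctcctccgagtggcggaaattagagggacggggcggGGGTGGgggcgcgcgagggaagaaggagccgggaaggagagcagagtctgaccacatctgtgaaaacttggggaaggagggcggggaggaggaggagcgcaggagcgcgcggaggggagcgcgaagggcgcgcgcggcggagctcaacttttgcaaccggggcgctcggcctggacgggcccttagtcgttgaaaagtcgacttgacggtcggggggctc

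Windows were found for 5 of the 7 genes (Hhip, Ptch1, Smo, Gli2 and Gli3). The core CCACCC, searched on both strands, was found in 4 of these 5 windows, and in 31.5% of the 32851 RefSeq windows of the same kind. It began 158 bases before the start of Hhip, 162 before that of Smo and 170 before that of Gli3, where it lies on the opposite strand. Gli2, which did not pass the test, held it 192 bases before its start and, on the opposite strand, 205 before. The window of Ptch1 lacked it. The longer GLI sequence GACCACCCA, which contains the core, was in 0 of the 5 windows and in 0.253% of all windows. The sequence CACGTG, bound by MYC family proteins, was in 0 of the 5 and in 7.15% of all windows, and the looser CANNTG, which includes CACGTG, was in 1 of the 5, that of Gli3, and in 72.3% of all windows. The 5 windows were rich in G and C, from 67.3% in Gli2 to 76.3% in Ptch1, against a median of 52.7% over all windows. These matches describe letters only.

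Expression is given as the authors' RMA value, a log2 scale on which a step of 1 is a 2-fold change. Calls were made with limma where the adjusted p was 0.14 or lower, with Benjamini-Hochberg adjustment over all 23879 genes, the false discovery rate limit that the study's design text names. Of the 7 pathway genes, Hhip rose in N-myc ko cochleae, Smo and Gli3 fell, and 4 did not pass the test. The 3 calls made up 42.9% of the members, against 34.7% of all genes called, 14.9% called higher and 19.8% called lower, so the count lies near the background. Every change as deposited was small, at most 1.29-fold. The call of Hhip was kept after quantile normalisation or cyclic loess, and those of Smo and Gli3 were not. The median log2 change as deposited was -0.20 over the members and -0.030 over all genes. After quantile normalisation it was -0.085 over the members and -0.0092 over all genes, and after cyclic loess -0.083 and -0.0013. The genes nearest each member in mean value had median log2 changes from -0.20 to -0.092 as deposited. In whole tissue, fewer cells of a type and less RNA per cell cannot be told apart.

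**Figure D1:**
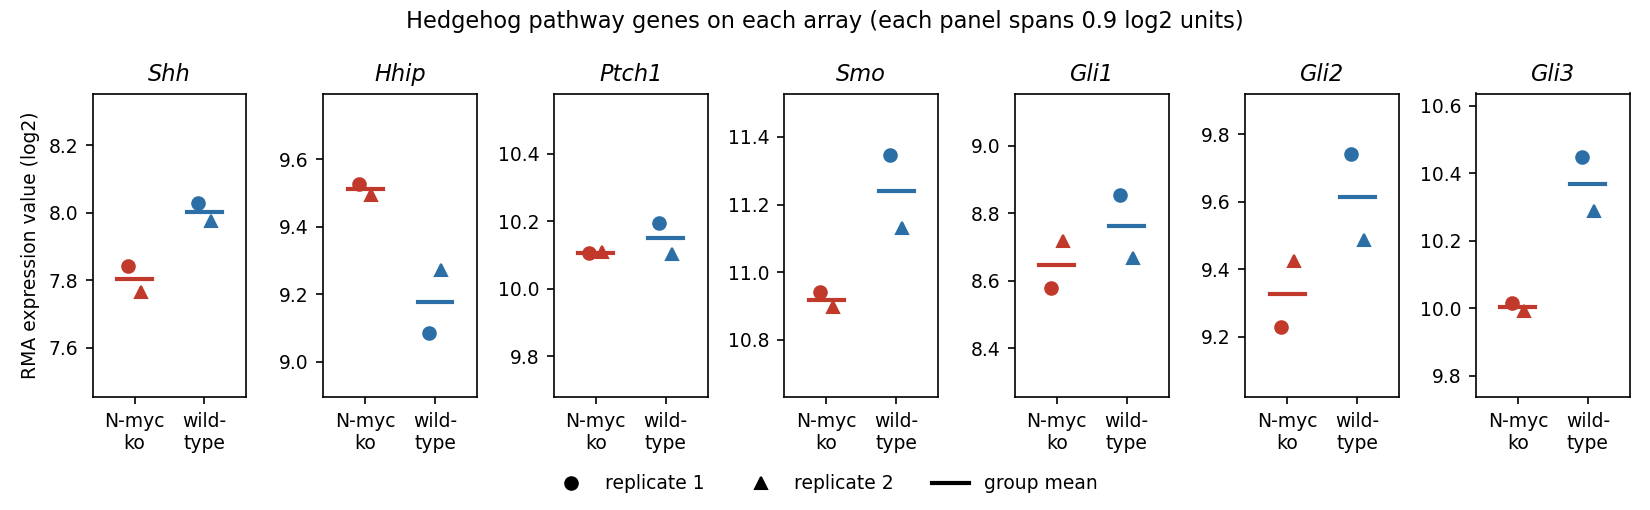
RMA expression value (log2) of each pathway gene on the 2 N-myc ko arrays (red, left) and the 2 wild-type arrays (blue, right), with circles for replicate 1, triangles for replicate 2 and lines for group means. Each panel spans the same number of log2 units, and levels are not comparable between panels. Hhip lies higher on both N-myc ko arrays, Shh, Smo, Gli2 and Gli3 lie lower, and the groups overlap for Ptch1 and Gli1.

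The ligand gene Shh had log2 values of 7.84 and 7.76 on the N-myc ko arrays, against 8.03 and 7.98 on the wild-type arrays. Both N-myc ko arrays were below both wild-type arrays, with a gap of 0.13 between the groups. The log2 change was -0.20 (95% interval -0.42 to 0.023), which did not pass the test (limma adjusted p = 0.18). The interval allows anything from a 0.746-fold to a 1.02-fold level in N-myc ko cochleae.

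Hhip, the hedgehog interacting protein, is a membrane-bound inhibitor that captures the ligand. It had log2 values of 9.53 and 9.50 on the N-myc ko arrays, against 9.08 and 9.27 on the wild-type arrays. The N-myc ko arrays lay close together and above both wild-type arrays, and wild-type replicate 1 was the lowest. Hhip averaged 9.51 ± 0.022 in N-myc ko and 9.18 ± 0.13 in wild-type cochleae (SD, n = 2 each), a 1.26-fold rise (95% interval 1.06 to 1.50). The log2 change was 0.33 (SE 0.10, limma adjusted p = 0.074). As deposited it was the only member with a change above 0.

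Ptch1, the receptor and like Hhip a known target of the pathway, was not called. Its log2 values were 10.10 and 10.11 on the N-myc ko arrays, against 10.19 and 10.10 on the wild-type arrays, so the groups overlapped. The log2 change was -0.042 (95% interval -0.26 to 0.18, limma adjusted p = 0.78) and turned to 0.089 after quantile normalisation. The interval as deposited runs from 0.833-fold to 1.13-fold of wild-type. After quantile normalisation the 95% interval of the log2 change was -0.14 to 0.32.

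Smo, the transducer, had log2 values of 10.94 and 10.90 on the N-myc ko arrays, against 11.35 and 11.13 on the wild-type arrays. The 2 N-myc ko arrays were nearly equal and below both wild-type arrays, which differed by 0.22 from each other. The fall was 1.25-fold, with means of 10.92 ± 0.032 in N-myc ko and 11.24 ± 0.15 in wild-type cochleae (SD, n = 2 each). The log2 change was -0.32 (SE 0.11, limma adjusted p = 0.091).

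The 3 GLI genes encode the transcription factors at the end of the pathway, and their log2 changes as deposited ranged from -0.36 to -0.11. Gli3, which acts largely as the repressor when ligand is absent, had log2 values of 10.02 and 9.99 on the N-myc ko arrays, against 10.45 and 10.29 on the wild-type arrays. The groups were separated by 0.27, the widest gap of any member. Gli3 fell 1.29-fold in N-myc ko cochleae, with means of 10.004 ± 0.016 in N-myc ko and 10.37 ± 0.11 in wild-type cochleae (SD, n = 2 each; log2 change -0.36, SE 0.10, limma adjusted p = 0.057).

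Gli2, the main activator of the family in mouse embryos, had log2 values of 9.23 and 9.43 on the N-myc ko arrays, against 9.74 and 9.49 on the wild-type arrays. The groups did not overlap, but the gap of 0.061 was smaller than the distance between replicates in either group, 0.19 in N-myc ko and 0.25 in wild-type cochleae. The log2 change of -0.29 (95% interval -0.59 to 0.020) did not pass the test (limma adjusted p = 0.16). Gli1, an activator whose own transcription is a widely used readout of the pathway, had log2 values of 8.58 and 8.72 on the N-myc ko arrays, against 8.85 and 8.67 on the wild-type arrays. Its groups overlapped. The log2 change was -0.11 (95% interval -0.38 to 0.15, limma adjusted p = 0.50) and turned to 0.083 after quantile normalisation. As deposited, the interval reaches from 0.769-fold to 1.11-fold of wild-type.

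As deposited, the groups did not overlap for 5 of the 7 genes. In 4 of them N-myc ko was below wild-type (Shh, Smo, Gli2 and Gli3), and in 1 above (Hhip). After quantile normalisation the groups stayed apart for Hhip, Smo and Gli3 but overlapped for Shh and Gli2. For these an N-myc ko array (7.902 and 9.49) then lay above wild-type replicate 2 (7.900 and 9.38). The other values in this paragraph are as deposited. Over all genes 64.9% had groups that did not overlap, 36.2% with N-myc ko below and 28.8% with N-myc ko above. For Hhip, Smo and Gli3 the N-myc ko replicates lay within 0.045 of each other, while the wild-type replicates lay between 0.16 and 0.22 apart. Wild-type replicate 1 was the highest of the 4 arrays for 6 members and the lowest for Hhip. Over all genes that array was the highest for 23.1% and the lowest for 27.3%, and over the 5600 genes nearest the members in mean value it was the highest for 35.3% and the lowest for 14.4%. Without it no member was called, against 21.6% of all genes, and the log2 changes of Hhip, Smo and Gli3 were 0.24, -0.21 and -0.28 (limma adjusted p = 0.26, 0.31 and 0.19).

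The 3 calls were also lost when either N-myc ko array was left out. Each such fit leaves 1 N-myc ko array, so the loss cannot tell dependence on that array from lower precision. Without N-myc ko replicate 1 the log2 changes were 0.32 for Hhip, -0.34 for Smo and -0.38 for Gli3 (limma adjusted p = 0.24, 0.22 and 0.17), and without N-myc ko replicate 2 they were 0.35, -0.30 and -0.35 (limma adjusted p = 0.15, 0.22 and 0.1425), so no member was called in either fit, against 13.2% of all genes in the first and 27.5% in the second. Without wild-type replicate 2 the 3 calls were kept and Gli2 was called as well, at -0.41 (limma adjusted p = 0.13), against 20.6% of all genes called. With the limit at 0.05, limma called 0 members, against 15% of all genes. At an unadjusted p under 0.05 it counted 3 members, against 35.1% of all genes, and significance analysis of microarrays (SAM), which the design text names as the study's test, called 5, adding Shh and Gli2 as lower, against 56.5% of all genes.

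The members were then set against genes of equal mean value, because the direction of change in the whole table went with the mean. The median log2 change over all genes was 0.16 for means between 6 and 7, -0.21 between 8 and 9 and -0.12 between 10 and 11. All 7 members have means above the table's median of 7.52, from 7.90 for Shh to 11.08 for Smo, where most genes had changes below 0. For each member the 1000 genes nearest in mean over the 4 arrays were taken as neighbours, and their median log2 change was subtracted. No test was made of this difference.

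**Figure D2:**
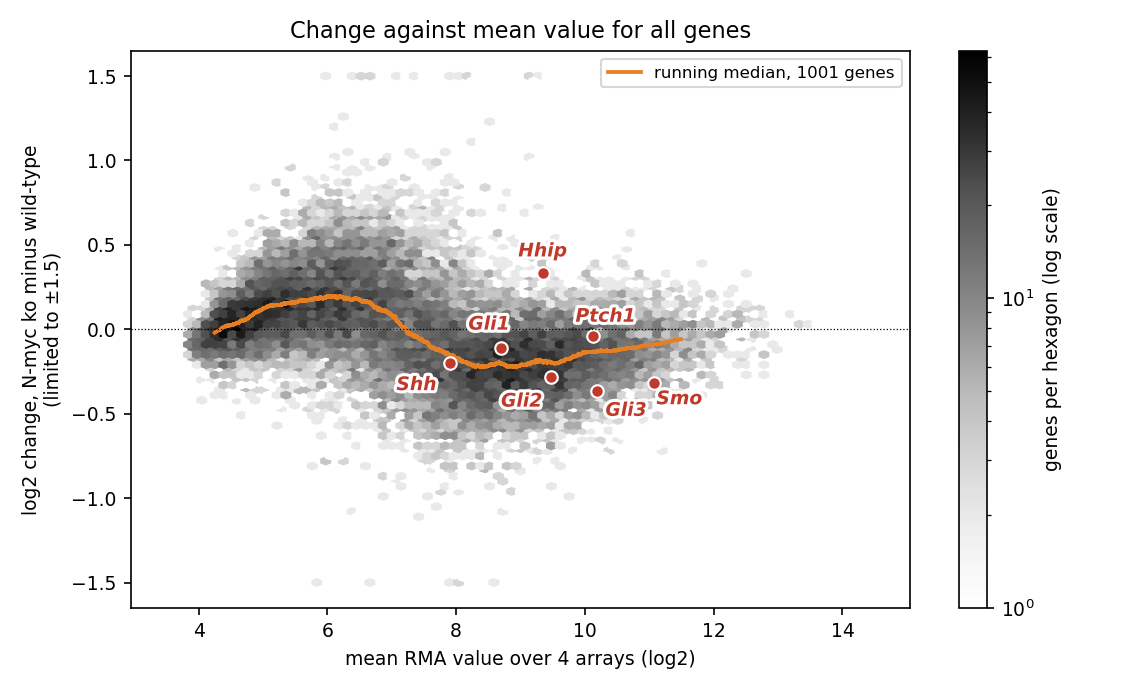
Log2 change (N-myc ko minus wild-type) against the mean RMA value over the 4 arrays for all 23879 genes, shaded by the number of genes, with the running median in orange and the 7 pathway genes in red. Changes beyond the vertical limits are drawn at the limits. Hhip at 0.33 stands above the running median, which is below 0 at its mean value, while Shh, Gli1, Gli2 and Ptch1 lie near it.

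Hhip differed most from its neighbours. Their median log2 change was -0.19, so that Hhip stood 0.52 above it, a 1.44-fold relative level, and 96.9% of the 1000 neighbours had a lower change than Hhip. Only 3.5% of these neighbours were called higher, and 37.4% were called lower. Leaving out each array in turn gave 0.46 to 0.61, and the value was also 0.52 after quantile normalisation or cyclic loess. Such scaling shifts genes of like mean together, so it could hardly move this difference. Matching on the wild-type mean alone gave 0.54.

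Smo and Gli3 lay below their neighbours by similar amounts. Their median log2 change was -0.092 for Smo, which stood at -0.23 relative to it, and 11.3% of its neighbours had a lower change. For Gli3 the median was -0.13 and the relative value also -0.23, and 13.4% of its neighbours had a lower change. Among the neighbours of Smo and Gli3, 19.9% and 26.8% were called lower. Without wild-type replicate 1 the differences were -0.12 for Smo and -0.13 for Gli3.

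The 4 members that did not pass the test lay within 0.1 of their neighbours' median. Relative to it, Shh stood at -0.046, Gli2 at -0.087, Ptch1 at 0.091 and Gli1 at 0.092. The signs of Shh, Gli1 and Gli2 each turned when some array was left out, with values from -0.11 to 0.012 for Shh, from -0.028 to 0.20 for Gli1 and from -0.23 to 0.056 for Gli2. Ptch1 and Gli1 were thus below 0 as deposited and above 0 relative to genes of like mean.

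**Figure D3:**
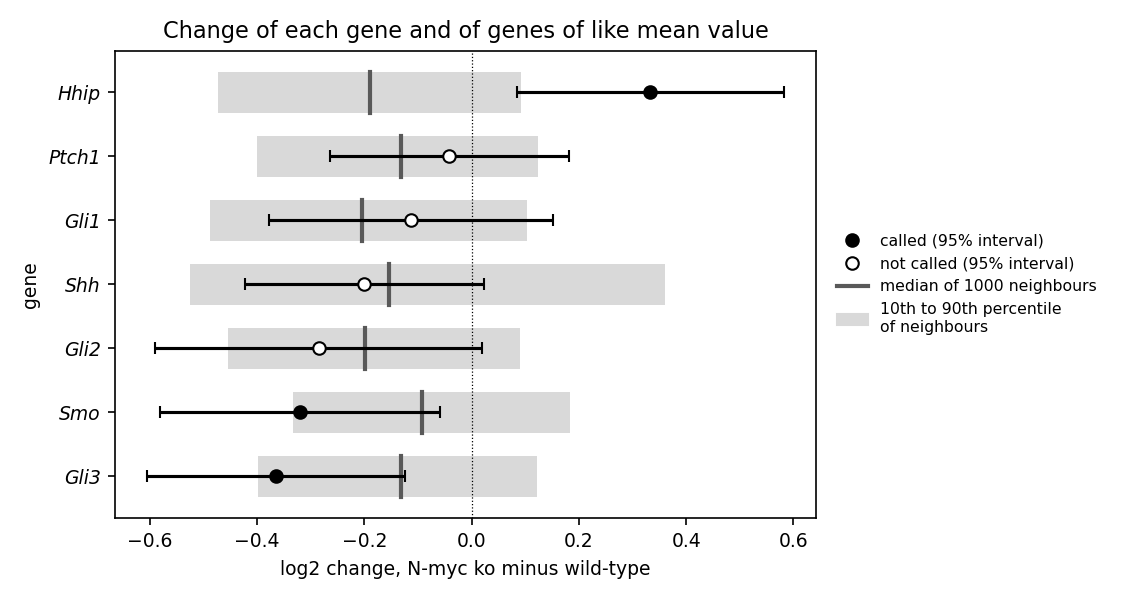
Log2 change (N-myc ko minus wild-type) of each pathway gene with its 95% interval from limma (filled where called), over the 10th to 90th percentile (grey band) and the median (dark line) of the change of its 1000 neighbours in mean value. Hhip at 0.33 is the only gene outside its neighbours' band, which ends at 0.091.

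Hhip kept its call when the arrays were rescaled. Quantile normalisation gives the 4 arrays 1 common distribution. After it Hhip had log2 values of 9.65 and 9.55 on the N-myc ko arrays, against 9.01 and 9.16 on the wild-type arrays, which did not overlap. Its log2 change was 0.52 (95% interval 0.28 to 0.76, limma adjusted p = 0.042), a 1.43-fold rise. Hhip was then the only member called, against 20.2% of all genes called and 10.1% called higher.

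Smo and Gli3 kept their direction after quantile normalisation but were not called. The log2 change of Smo was -0.24 (95% interval -0.50 to 0.025, limma adjusted p = 0.22) and that of Gli3 was -0.23 (95% interval -0.48 to 0.022, limma adjusted p = 0.22). Ptch1 and Gli1 turned to 0.089 and 0.083, neither called (limma adjusted p = 0.59 and 0.67). Shh and Gli2 stood at -0.085 and -0.096 (limma adjusted p = 0.59 and 0.66). With cyclic loess the log2 change of Hhip was 0.53 (limma adjusted p = 0.039), and no other member was called, against 20.8% of all genes. With quantile normalisation and 1 array left out, the log2 change of Hhip ranged from 0.44 to 0.60. It was 0.47 without N-myc ko replicate 1, where its call was lost. That fit leaves 1 N-myc ko array, so the loss cannot tell dependence on that array from lower precision.

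**Figure D4:**
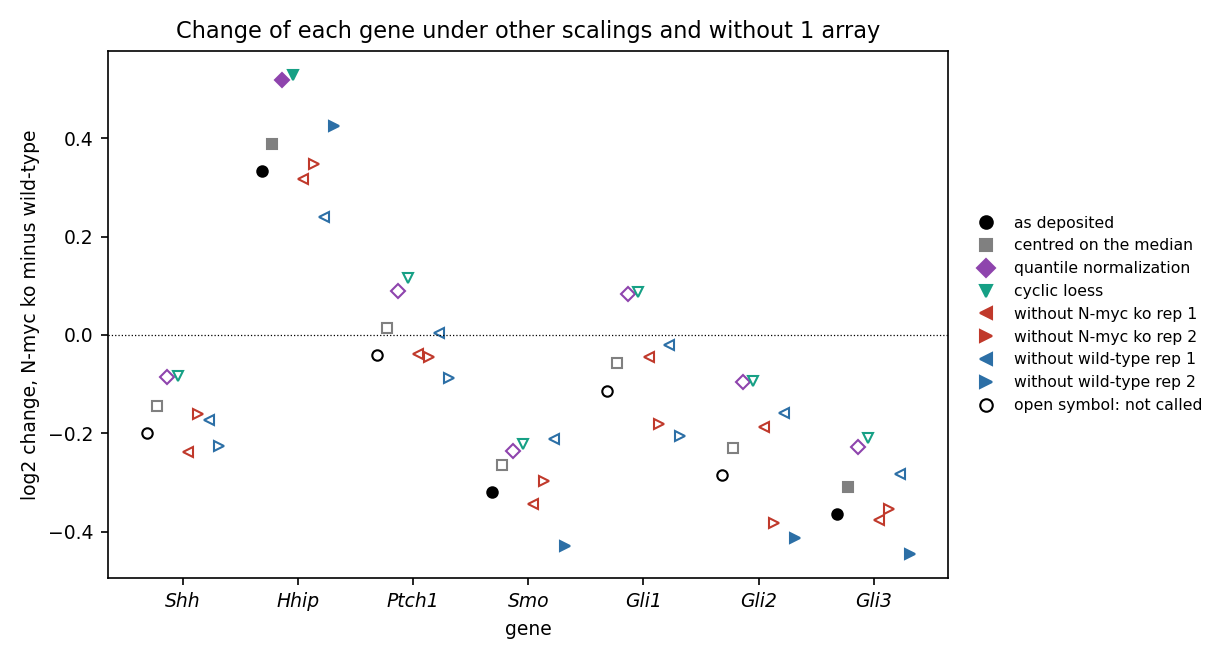
Log2 change (N-myc ko minus wild-type) of each pathway gene as deposited, under 3 other scalings and without each array in turn, filled where the adjusted p was at most 0.14. Hhip stays above 0 under all 8 settings drawn, from 0.24 to 0.53, and Shh, Smo, Gli2 and Gli3 stay below 0.

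Members of like mean value can also be set against each other within an array, which takes out what both share. This comparison was chosen after the values were seen, and took the pairs whose means differ by at most 0.5. The member with the higher log2 change was put first. The group difference of a pair was thus above 0 by construction. It equals the difference between the log2 changes of its 2 members given above. Hhip minus Gli2 was 0.30 and 0.070 on the N-myc ko arrays, against -0.66 and -0.21 on the wild-type arrays, a difference of 0.62 between the groups. Ptch1 minus Gli3 was 0.090 and 0.12 on the N-myc ko arrays, against -0.25 and -0.18 on the wild-type arrays, a difference of 0.32. The groups did not overlap for either pair, and the exact two-sided permutation test gave p = 0.333 for both, the smallest that 2 arrays against 2 allow. The sign of such a difference on 1 array depends on the probes of the genes and has no meaning of its own. Without 1 array the group difference ranged from 0.40 to 0.84 for Hhip minus Gli2 and from 0.29 to 0.36 for Ptch1 minus Gli3.

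The profile of Gli3, the called member with the widest change as deposited, was also compared with those of all other genes by Euclidean distance between mean-centred log2 values over the 4 arrays. The nearest were ENSMUSG00000036180, at a distance of 0.0098 and with a log2 change of -0.36 (limma adjusted p = 0.057), and ENSMUSG00000049354, at 0.012 and with a change of -0.35 (limma adjusted p = 0.062). In all, 505 genes lay within 0.1 of the Gli3 profile. After quantile normalisation, cyclic loess or centring on the median, the widest change among the members was that of Hhip.

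Pearson's r across genes was 0.995 within N-myc ko, 0.995 within wild-type and 0.983 to 0.987 between groups, and genes are not independent replicates. The IDs of the table are not paired with symbols, and the reference gene table matched 0 of them. The symbols of the 7 members came with their IDs. Mycn itself, other pathway genes, and markers of cochlear cell types, including those of the spiral ganglion, were therefore not analysed here. The labelled tissue and genotype were thus not checked against marker genes, and whether a change in cell make-up moved with the pathway genes was not tested.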

How the data were processed

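Per the labels' protocols, total RNA from cochleae was amplified, fragmented and biotinylated for arrays. The deposited log2 values were made by the authors with RMA and affy, per the submitters' processing notes and the design text (background correction, normalisation within and between arrays, 1 value per gene). Not given in the sources used here are versions, array design and probe assignment. Precision is limited by the 4 arrays.

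All 23879 rows were fitted with limma 3.58.1 in R 4.3.3 (lmFit, eBayes, two-sided, N-myc ko minus wild-type, no filter). The limit for a call was an adjusted p of 0.14. Neighbours were the 1000 non-member genes nearest in mean. The scripts were tested on simulated data. Named genes were all 7 members, plus the 2 profiles nearest the called member with the widest change as deposited. Members and lists were chosen with earlier results of these data known. Alternatives were a limit of 0.05, SAM over all 6 label arrangements, a variance trend with robust variances, quantile, cyclic loess or median scaling, the brighter genes alone, 500 or 2000 neighbours, matching on the wild-type mean, the replicate block, and leaving out each array. Promoter windows came from RefSeq.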

Additional observations from a re-analysis of the deposited data

How the results depend on the processing

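A fit without 1 array takes the spread of the remaining lone array from the group of 2. The cause of the changes below was not tested. Some of the settings used fewer genes or arrays. The 8280 genes called (3561 higher, 4719 lower) became 3572 (1614 and 1958) at an adjusted p of at most 0.05, 13491 with SAM (8654 lower), 4816 after quantile normalisation (2414 lower), 4962 after cyclic loess (2316 lower) and 4757 among genes above the median mean (692 higher), and ranged from 3151 to 6559 without 1 array (1436 to 3044 higher, 1715 to 3515 lower). Centring on the median gave 4687 higher and 3566 lower calls. The 3 members called (1 higher, 2 lower) became 0 at the 0.05 limit (0 higher, 0 lower), where Hhip (0.33), Smo (-0.32) and Gli3 (-0.36) lost their calls, and 5 with SAM (4 lower), which added Shh (-0.20) and Gli2 (-0.29). They became 1 (0 lower) after quantile normalisation, which ended the calls of Smo (-0.24) and Gli3 (-0.23) and turned Ptch1 (0.089) and Gli1 (0.083). Cyclic loess also left 1 (0 lower), with Smo at -0.22, Gli3 at -0.21, Ptch1 at 0.12 and Gli1 at 0.088. Centring left 1 lower call, with Smo at -0.27 not called and Ptch1 at 0.014. Without 1 array the members called ranged from 0 to 4 (0 to 1 higher, 0 to 3 lower).

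Without 1 array the log2 changes ranged from -0.24 to -0.16 for Shh, 0.24 to 0.43 for Hhip, -0.087 to 0.0035 for Ptch1, -0.43 to -0.21 for Smo, -0.21 to -0.021 for Gli1, -0.41 to -0.16 for Gli2 and -0.45 to -0.28 for Gli3. Relative to genes of equal mean they ranged from -0.11 to 0.012 for Shh, 0.46 to 0.61 for Hhip, 0.030 to 0.15 for Ptch1, -0.34 to -0.12 for Smo, -0.028 to 0.20 for Gli1, -0.23 to 0.056 for Gli2 and -0.33 to -0.13 for Gli3. With quantile normalisation and 1 array left out (chosen after seeing the data), Gli1 ranged from -0.030 to 0.19 and Gli2 from -0.24 to 0.043, with the signs turned without wild-type replicate 2 for Gli1 and without wild-type replicate 1 for Gli2. Over the 12 alternatives, each array left out counted as 1, Hhip kept its call in 8, Gli3 in 6 and Smo in 5. All 3 kept their direction in all 12. The stricter limit, SAM, the variance trend, the brighter genes alone and the replicate block leave the log2 change as it is. Under these settings the direction could not turn. Only the other scalings and the fits without 1 array could test it. The replicate numbers have no stated shared origin (deviations of same-numbered arrays correlate at 0.12 across genes), and adding the replicate block to the fit gave 8835 calls and kept all 3 calls among the members, with adjusted p = 0.085 for Hhip, 0.084 for Smo and 0.064 for Gli3. The log2 changes under the block equalled those without it: -0.20 for Shh, 0.33 for Hhip, -0.042 for Ptch1, -0.32 for Smo, -0.11 for Gli1, -0.29 for Gli2 and -0.36 for Gli3.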
